A study of Mus musculus with 6 samples.

Results

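The nuclear-encoded subunits of oxidative phosphorylation were described in RNA of the mouse lateral amygdala, where fear memories are formed and stored. They were taken by gene symbol: names beginning with Nduf followed by a, b, c, s or v and a number, the genes Sdha to Sdhd, and names beginning with Uqcr, Cox4 to Cox8 or Atp5. This gave 89 of 50383 gene IDs, of which 6 had names carrying -ps (the mark of a pseudogene) and were left out, so 83 members remained. By name, 37 belonged to complex I, 4 to complex II, 8 to complex III, 17 to complex IV and 17 to complex V. Of these, 81 passed the filter on low values (a mean of at least 1 FPKM over all libraries) and were tested. FPKM counts fragments per transcript length and per library size, so levels of different genes can be compared only roughly, as far as the length used is right. Cox4i1, a nuclear-encoded subunit of complex IV, and Ndufb1 of complex I were not among the rows found and were not analysed here. Other subunits have names that the rule misses, among them Cyc1 (mean 67.4 FPKM), Ndufab1 (102), Usmg5 (464) and 2010107E04Rik (229). They were not counted as members, so levels and ranks by complex cover the members only.

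The mice were males of a 129xC57BL/6 hybrid strain, 2 to 3 months old, without other genetic changes named in the labels. The study asked about BAF53b, a neuronal subunit of a nucleosome remodelling complex, and its gene Actl6b. There were 3 groups of 2 libraries: control, whose treatment the labels do not state, scrambled siRNA (a small interfering RNA with a shuffled sequence) and Baf53b siRNA (one directed at Actl6b); per the labels, siRNA was injected 1 day after training. Tissue of 4 mice was dissected, but whether a library is a pool of animals is not stated, so the p-values measure the spread between these libraries, which may be technical.

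Actl6b was at 42.9 and 44.1 FPKM in control libraries, 43.8 and 43.9 with scrambled siRNA and 42.8 and 39.6 with Baf53b siRNA. The log2 difference between the siRNA groups was -0.09 (SE 0.12, limma adjusted p = 1), so the libraries are called here by their labels only. Estimated depth was 6.43 M to 10.7 M fragments per library. The summed level of 8 neuronal markers ranged from 2064 to 2345 FPKM, with all 8 detected. The 10 microglial markers summed to 331 and 328 FPKM in control libraries, 571 and 574 with scrambled siRNA and 1044 and 859 with Baf53b siRNA. The 8 leukocyte markers summed to 3.48 and 2.45, 23.1 and 17.6, and 362 and 177 FPKM in the same order. Both sums were lowest in control and highest in the Baf53b siRNA libraries. In bulk tissue, fewer cells of a type and less RNA per cell cannot be told apart.

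Oxidative phosphorylation makes most of the ATP that neurons spend on ion pumping and synaptic transmission. Complex I (NADH dehydrogenase) and complex II (succinate dehydrogenase) pass electrons to ubiquinone, complex III passes them to cytochrome c and complex IV (cytochrome c oxidase) to oxygen, and complexes I, III and IV pump protons whose return drives complex V, the ATP synthase. All but complex II combine subunits made from nuclear genes with subunits encoded by mitochondrial DNA, so their assembly draws on both genomes.

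Most members were abundant. Their summed level was 10021 and 10877 FPKM in control libraries, 11796 and 10646 with scrambled siRNA and 11403 and 9775 with Baf53b siRNA, which was 1.54% to 1.93% of the FPKM of a library. The highest sum was in scrambled siRNA replicate 1 and the lowest in Baf53b siRNA replicate 2, and the 3 groups overlapped. A mean of at least 100 FPKM was reached by 45 members, 30 lay between 10 and 100, and 8 were under 10, of which 2 were listed at 0 in every library. Between its highest and lowest library a tested member differed by a median factor of 1.34.

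**Figure D1:**
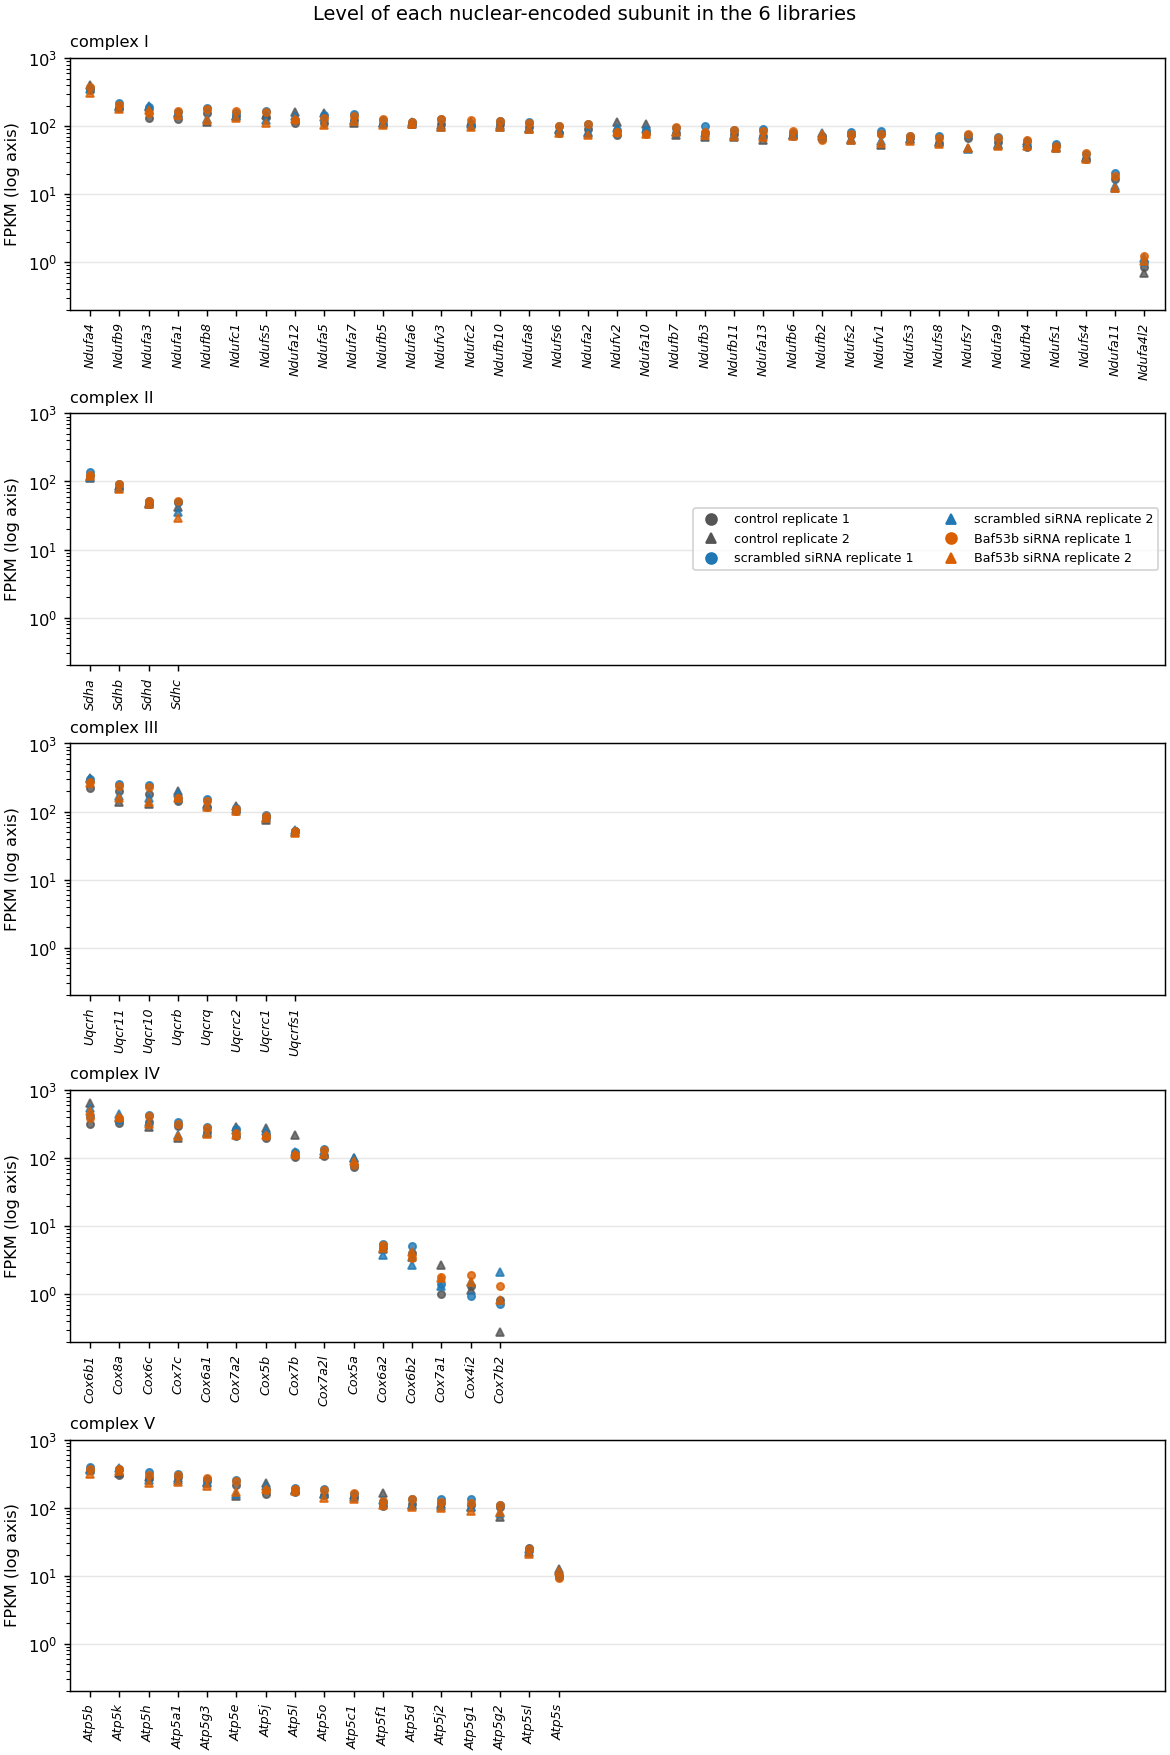
Level of each member in the 6 libraries, 1 panel per complex by name, members ordered by mean FPKM on a log axis; colours mark the groups, circles replicate 1 and triangles replicate 2. There are 45 members with a mean of at least 100 FPKM, while 5 alternative isoforms of complex IV and Ndufa4l2 lie under 10; Cox8b and Cox8c, listed at 0, are not drawn.

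In complex I the 7 core subunits, which hold the flavin and the iron-sulfur clusters, had means from 50.3 FPKM (Ndufs1, the large iron-sulfur subunit of the NADH module) to 88.7 FPKM (Ndufv2, an iron-sulfur subunit beside the flavin). The 28 accessory subunits reached from 15.5 FPKM (Ndufa11, a membrane-arm subunit) to 195 FPKM (Ndufb9), with a median of 104 FPKM against 67.0 FPKM for the core. Ndufb9 was at 182 and 198 FPKM in control libraries, 222 and 189 with scrambled siRNA and 202 and 179 with Baf53b siRNA. Ndufa4, which is now placed in complex IV despite its name, had the highest level among the Nduf genes, with 338 and 399 FPKM in control libraries, 367 and 356 with scrambled siRNA and 374 and 306 with Baf53b siRNA. For both genes the libraries of the 3 groups overlapped.

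Complex II, the only one made wholly from nuclear genes, had the lowest sum, 294 ± 4.1 FPKM in control libraries (SD, n = 2), 303 ± 35 with scrambled siRNA and 298 ± 33.9 with Baf53b siRNA. Sdha, the flavoprotein that oxidises succinate, was the most abundant with 122 and 114 FPKM in control libraries, 135 and 115 with scrambled siRNA and 126 and 120.0 with Baf53b siRNA. Sdhb, the iron-sulfur subunit, was at 78.9 and 86.1, 90.3 and 80.4, and 92.7 and 78.2 FPKM in the same order. The membrane anchors were lower. Sdhd was at 46.3 and 48.3, 51.4 and 46.8, and 51.2 and 46.2 FPKM, and Sdhc at 49.1 and 42.2, 50.2 and 35.2, and 51.8 and 29.4 FPKM. Sdha and Sdhc were lower in replicate 2 of every group, and the groups overlapped for all 4 genes.

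In complex III, Uqcrh (the acidic hinge protein at the cytochrome c1 side) was highest with 221 and 310.0 FPKM in control libraries, 298 and 303 with scrambled siRNA and 270.5 and 265 with Baf53b siRNA. The Rieske iron-sulfur protein Uqcrfs1, one of the catalytic subunits, was lowest and was at 52.6 and 49.9, 51.7 and 52.9, and 51.2 and 48.4 FPKM. For both, each Baf53b siRNA library was below each scrambled siRNA library, and the control libraries overlapped with the Baf53b siRNA libraries. The 5 small subunits had a median of 180.0 FPKM against 82.1 FPKM for the 3 core proteins among the members.

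In complex IV the 9 subunits used in most tissues had means from 87.7 FPKM (Cox5a) to 469 FPKM (Cox6b1, which faces the intermembrane space). Among the members of complex V, Atp5b, the catalytic beta subunit of the F1 head, was the most abundant. It was at 359 and 371 FPKM in control libraries, 398 and 351 with scrambled siRNA and 374 and 313 with Baf53b siRNA. Atp5k, the small e subunit of the membrane part, was at 297 and 319, 376 and 382, and 368 and 349.9 FPKM. Both Atp5k values in each siRNA group lay above both control values; the groups overlapped for Atp5b. The 3 genes for the same c subunit, which builds the rotating ring, had means of 109.5 FPKM (Atp5g1), 93.7 FPKM (Atp5g2) and 243 FPKM (Atp5g3). Their mature proteins are the same, and how the authors treated fragments that match several copies is not given in the sources used here. Atp5s and Atp5sl, which are named after the synthase but are not structural subunits, were at 10.7 and 23.8 FPKM.

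**Figure D2:**
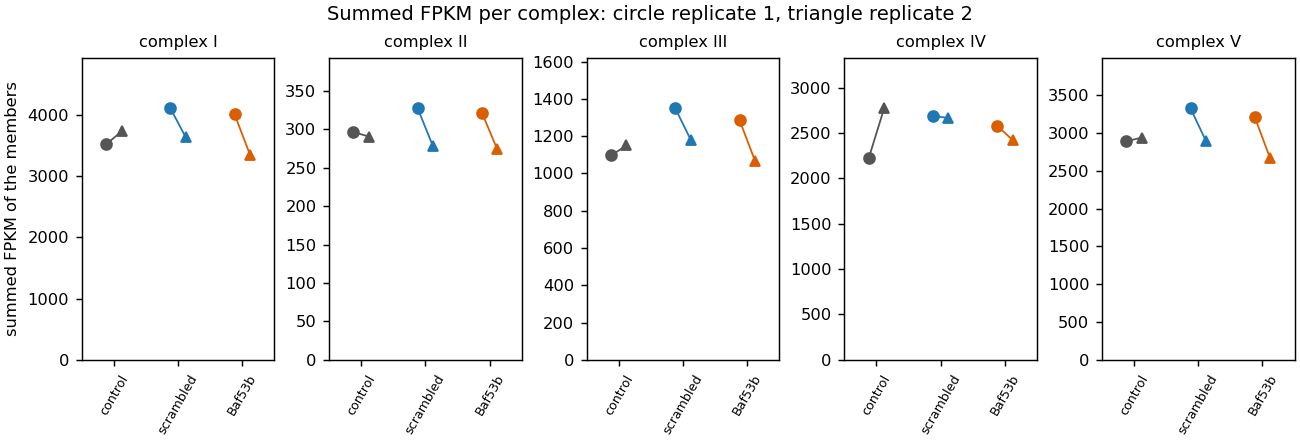
Summed FPKM of the members of each complex in each library, by group, with a line from replicate 1 (circle) to replicate 2 (triangle); each panel has its own axis starting at 0. In both siRNA groups every complex is lower in replicate 2, whereas control replicate 2 is above replicate 1 in complexes I, III, IV and V.

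Several complex IV subunits have alternative isoforms known from heart and skeletal muscle, testis or lung. Where both kinds of form were measured, the form used in most tissues was far higher in every library. Cox6a1 was at 239.9 and 238 FPKM in control libraries, 289.6 and 243 with scrambled siRNA and 280.2 and 225 with Baf53b siRNA, whereas Cox6a2, its striated muscle form, was at 4.83 and 4.61, 5.49 and 3.81, and 5.26 and 4.82 FPKM. Cox7a2 averaged 245 FPKM and its related assembly factor Cox7a2l, which is found in respiratory supercomplexes, 122 FPKM, against 1.66 FPKM for the muscle form Cox7a1. Cox7b averaged 133 FPKM and Cox7b2 1.01 FPKM. Cox6b1 averaged 469 FPKM and Cox6b2, the testis form, 3.85 FPKM. Cox8a averaged 386 FPKM, and Cox8b and Cox8c were listed at 0 in all 6 libraries. Cox4i2, linked to lung and oxygen sensing, averaged 1.39 FPKM, with no common form beside it here, and Ndufa4l2 1.00 FPKM beside 357 FPKM for Ndufa4. Apart from Cox6a2, with at least 41.1 estimated fragments in each library, the expressed alternative forms rested on 3.00 to 23.4 fragments per library, so small differences between groups were not detectable for them at this depth. The markers of skeletal muscle summed to at most 4.10 FPKM in the same libraries.

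The sequence before the start of a gene is where transcription factors of the respiratory genes are known to bind, among them NRF1, the ETS factor GABP and YY1. RefSeq windows on GRCm38.p6 (250 bases before the start) were found for 66 members, in 71 windows, out of 32851 windows. The ETS core CCGGAAG, searched on both strands, was in 16.9% of the members' windows and 6.91% of all windows. The NRF1 core (a palindrome, whose strands read alike) was in 5.63% (Atp5g2, Atp5k, Cox6a1 and Ndufa11) and 0.782%. AAGATGGCG, a YY1 core, was in 1.41% (Atp5j alone) and 0.606%. The GC box GGGCGG was in 32.4% and 32.7%, and CCAAT in 42.3% and 33.8%. Windows of 5 members with differences between replicates in both directions, chosen after their values were seen, are shown 5′ to 3′ on the strand of the gene, cut at the first annotated exon base, with the ETS core of either strand in capitals. Uqcr10 is at chr11:4704345-4704594 (minus strand), Uqcr11 at chr10:80406831-80407071 (minus), Atp5e at chr2:174464106-174464351 (minus), Cox6b1 at chr7:30626152-30626364 (minus) and Cox5a at chr9:57520982-57521231 (plus).
Uqcr10: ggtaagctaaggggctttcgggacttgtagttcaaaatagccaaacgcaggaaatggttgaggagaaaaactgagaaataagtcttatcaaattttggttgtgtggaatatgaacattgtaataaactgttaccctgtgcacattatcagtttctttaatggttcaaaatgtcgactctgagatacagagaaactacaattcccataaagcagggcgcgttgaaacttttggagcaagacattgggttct
Uqcr11: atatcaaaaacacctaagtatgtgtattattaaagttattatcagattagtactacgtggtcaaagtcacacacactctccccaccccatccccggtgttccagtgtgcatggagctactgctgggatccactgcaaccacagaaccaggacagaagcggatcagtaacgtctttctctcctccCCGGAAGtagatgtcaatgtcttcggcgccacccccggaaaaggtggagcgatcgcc
Atp5e: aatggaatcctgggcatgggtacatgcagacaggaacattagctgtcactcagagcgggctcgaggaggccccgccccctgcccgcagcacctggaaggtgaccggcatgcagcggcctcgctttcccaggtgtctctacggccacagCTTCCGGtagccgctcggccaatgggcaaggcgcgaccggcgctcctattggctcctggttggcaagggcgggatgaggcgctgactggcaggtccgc
Cox6b1: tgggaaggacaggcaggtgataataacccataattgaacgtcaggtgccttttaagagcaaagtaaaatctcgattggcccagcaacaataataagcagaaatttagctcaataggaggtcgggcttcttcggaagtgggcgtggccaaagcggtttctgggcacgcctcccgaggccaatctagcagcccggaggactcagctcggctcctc
Cox5a: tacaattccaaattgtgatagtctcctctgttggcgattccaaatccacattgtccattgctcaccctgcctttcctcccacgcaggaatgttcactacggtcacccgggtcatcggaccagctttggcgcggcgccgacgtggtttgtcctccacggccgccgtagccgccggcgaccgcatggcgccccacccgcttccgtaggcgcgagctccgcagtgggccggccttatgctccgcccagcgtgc
Of the 12 members with the ETS core in the full window, 9 were lower and 3 (Atp5j, Cox6b1 and Uqcrh) higher in replicate 2 by sign. Among all 81 tested members 72.8% were lower, and among all genes 67.1%, so 9 of 12 was near those shares. For Cox6b1 the core lay in the bases removed at the exon. A match describes letters and is no measured binding.

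Between the Baf53b siRNA and scrambled siRNA libraries, which ask for the effect of the targeting sequence, 0 of 81 members passed the test in either direction (limma with Benjamini-Hochberg adjustment over 14663 genes). Over all genes 18 passed as higher (0.123%) and 0 as lower (0%). At an unadjusted p under 0.05 the members numbered 0 in each direction, against 2.67% of all genes higher and 0.361% lower. The member nearest to the threshold was Cox4i2, a gene of few fragments, with a log2 difference of 0.29 (SE 0.20, unadjusted p = 0.191).

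Most differences were small and below 0. By sign, 68 of 81 members were lower in Baf53b siRNA, where 49% of all genes were (50.9% higher), and the median log2 difference was -0.07 against 0.00 for all genes. Each complex had a negative median: -0.06 in complex I, -0.02 in complex II, -0.07 in complex III, -0.09 in complex IV and -0.08 in complex V. The neuronal markers were lower by sign too, 8 of 8 with a median of -0.07, as were 5 of 5 markers of excitatory neurons with a median of -0.09; their part in the members' values was not tested. Both Baf53b siRNA libraries were below both scrambled siRNA libraries for 12 members (14.8%), where 9% of all genes were, and above them for 1 member, Cox7a1 (1.23%), where 13.1% were. The sign of the median rested on single libraries: it was 0.04 without scrambled siRNA replicate 1 and 0.06 without Baf53b siRNA replicate 2, and -0.15 without scrambled siRNA replicate 2 and -0.18 without Baf53b siRNA replicate 1.

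The lowest member was Ndufa5, an accessory subunit of the matrix arm of complex I, with 147 and 139 FPKM with scrambled siRNA and 131 and 105 with Baf53b siRNA. The 2 groups did not overlap, control (109.9 and 154) overlapped with both, and the log2 difference was -0.29 (SE 0.20, adjusted p = 1). Ndufa10, a complex I accessory subunit of the membrane arm, was at 88.1 and 89.8 FPKM in scrambled siRNA, 77.0 and 75.9 in Baf53b siRNA and 79.3 and 108 in control. It was the one member for which both Baf53b siRNA libraries lay below all 4 others in these values, with a log2 difference of -0.22 (SE 0.17, adjusted p = 1) against scrambled siRNA. In complex IV the lowest was Cox7a2 with 265 and 256 FPKM against 238 and 217 (log2 difference -0.20, SE 0.18, adjusted p = 1), and in complex V Atp5g1 with 133 and 102 FPKM against 118 and 90.4 (-0.17, SE 0.19, adjusted p = 1). For Cox7a2 the groups did not overlap, for Atp5g1 they did.

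**Figure D3:**
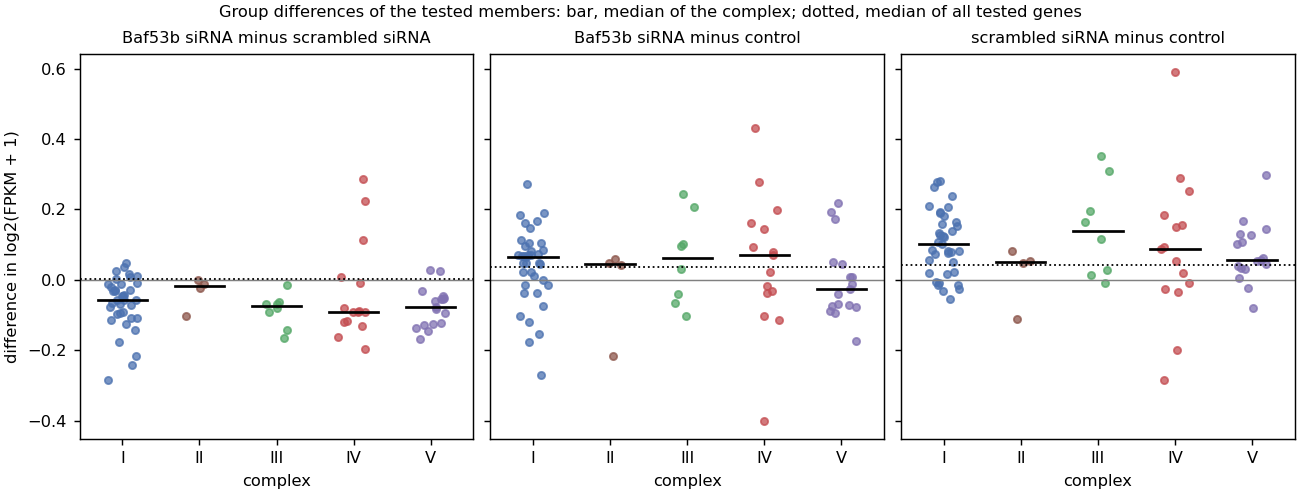
Difference in log2(FPKM + 1) of each tested member for the 3 group comparisons, by complex; bars are medians of a complex, the dotted line the median of all tested genes. Against scrambled siRNA the medians of all 5 complexes lie below 0, and for scrambled siRNA against control all lie above it; the comparisons share libraries pairwise.

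Against control, 0 of 81 members passed in either direction, while over all genes 181 passed as higher (1.23%) and 0 as lower (0%); at an unadjusted p under 0.05 there were again 0 members, against 4.75% and 0.273% of all genes. By sign 51 members were higher in Baf53b siRNA, where 60.7% of all genes were (39.3% lower), and the median was 0.05 against 0.04 for all genes. The balance turned with the scaling: 35 members were above 0 and 46 below with median-of-ratios scaling (median -0.0069), and 34 above and 47 below with the GC trend removed (median -0.0089). The median was -0.09 without Baf53b siRNA replicate 1 and 0.16 without Baf53b siRNA replicate 2. Groups did not overlap for 6 members that were higher (7.41%, all genes 16.7%) and for Ndufa10, which was lower (1.23%, all genes 7.11%). In complex V the lowest was Atp5f1, the b subunit of the stator stalk, with 107 and 163 FPKM in control and 123 and 111 in Baf53b siRNA (-0.17, SE 0.21, adjusted p = 1), and the groups overlapped. Cox7b, a small complex IV subunit, had the lowest difference, -0.40 (SE 0.32, adjusted p = 1), with 103 and 220.3 FPKM in control and 111 and 116 in Baf53b siRNA. The value of control replicate 2 stood apart from the other 5 libraries, which were between 103 and 125 FPKM.

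For scrambled siRNA against control, 0 of 81 members and 0 genes in all passed as higher (0%) or lower (0%), and at an unadjusted p under 0.05 there were 0 members against 2.03% and 0.184% of all genes. By sign 65 members were higher in scrambled siRNA, where 63.6% of all genes were (36.4% lower), with a median of 0.08 against 0.04. The median was 0.00 without scrambled siRNA replicate 1. Groups did not overlap for 14 members, all higher (17.3%, all genes 12.7%), 9 of them in complex I, and for 0 that were lower (all genes 5.57%). Atp5k, with the values given above, had the smallest unadjusted p (0.0803) and a log2 difference of 0.30 (SE 0.15, adjusted p = 1). Ndufa13, a complex I accessory subunit also known as GRIM-19, was at 72.4 and 62.9 FPKM in control and 91.2 and 74.0 in scrambled siRNA, a log2 difference of 0.28 (SE 0.18, adjusted p = 1) without overlap. The 3 comparisons share libraries pairwise, so their values are not independent.

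The unadjusted counts above come from the fit without the replicate number. With the replicate number as a block, the members' median SE went from 0.18 to 0.11, and 0 members passed with adjustment in any of the 3 comparisons. At an unadjusted p under 0.05, 9 members were then higher in scrambled siRNA than in control and 0 lower, where 4.44% and 0.525% of all genes were. Uqcr10 had the smallest unadjusted p of the 9 (0.00827, log2 difference 0.35, SE 0.09); its lowest value per replicate was in control, at 184 FPKM beside 244 with scrambled siRNA in replicate 1 and 129 beside 158 in replicate 2. The other 8 were Uqcr11, Ndufa13, Ndufb3, Ndufb8, Ndufv1, Cox6c, Cox7a2l and Atp5k. For Baf53b siRNA against control 1 member (Uqcr11, 0.25, SE 0.08, unadjusted p = 0.0264) was higher, where 7.19% of all genes were, and for Baf53b siRNA against scrambled siRNA 0 were higher or lower (all genes 3.64% and 0.975%).

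Replicate 2 was then compared with replicate 1, which asks for a shift by replicate number that the 3 groups share. With the 3 groups kept in the fit, 5 of 81 members were lower in replicate 2 at an adjusted p of 0.0499 each, where 62 of all genes (0.423%) were lower, and 0 members were higher, where 5 genes (0.0341%) were. These 5 calls sit at the threshold of 0.05 and turn on 1 gene: with the vault RNA gene Vaultrc5 kept in the table, as it was in a first run, 0 members passed. Leaving it out follows the rule on small RNA, but it was done by name after that run had been seen. At an unadjusted p under 0.05, 26 members were lower (32.1%, all genes 22.5%) and 4 higher (4.94%, all genes 4.19%). By sign 59 were lower and 22 higher, where 67.1% of all genes were lower and 32.9% higher. This balance went to 42 lower and 39 higher under quantile and under median-of-ratios scaling, and to 40 lower and 41 higher with the GC trend removed. The labels do not say what the replicate number stands for.

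The 5 genes are Ndufs7 (the iron-sulfur subunit next to the ubiquinone site of complex I), Uqcr10 and Uqcr11 (small subunits of complex III), Cox7c (a small subunit of complex IV) and Atp5e (the epsilon subunit of the F1 stalk). Uqcr10 (chr11:4701973-4704342, minus strand) was at 184, 244 and 225 FPKM in replicate 1 of control, scrambled siRNA and Baf53b siRNA, and at 129, 158 and 140.0 in replicate 2. Its log2 difference was -0.61 (SE 0.07). Uqcr11 (chr10:80402997-80406830, minus) was at 198, 252 and 240.4 and then 138, 167 and 160.1 FPKM, a difference of -0.56 (SE 0.07). For both genes every replicate 2 library was below every replicate 1 library. Ndufs7 (chr10:80249121-80256794, plus) was at 66.5, 73.2 and 76.2 and then 47.3, 46.4 and 47.7 FPKM, a difference of -0.60 (SE 0.07). Cox7c (chr13:86044816-86046904, minus) was at 293, 342 and 317 and then 200.3, 221 and 211 FPKM, a difference of -0.59 (SE 0.07). Atp5e (chr2:174461072-174464105, minus) was at 216, 257 and 249 and then 148, 157 and 168 FPKM, a difference of -0.61 (SE 0.07). Here too the replicates did not overlap, and the 3 groups moved alike, from -0.48 to -0.66 for Ndufs7 and from -0.55 to -0.63 for Cox7c. The 5 differences were negative under each of 4 other scalings, the weakest being -0.31 for Uqcr11 with the GC trend removed, but the calls did not hold under those scalings.

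**Figure D4:**
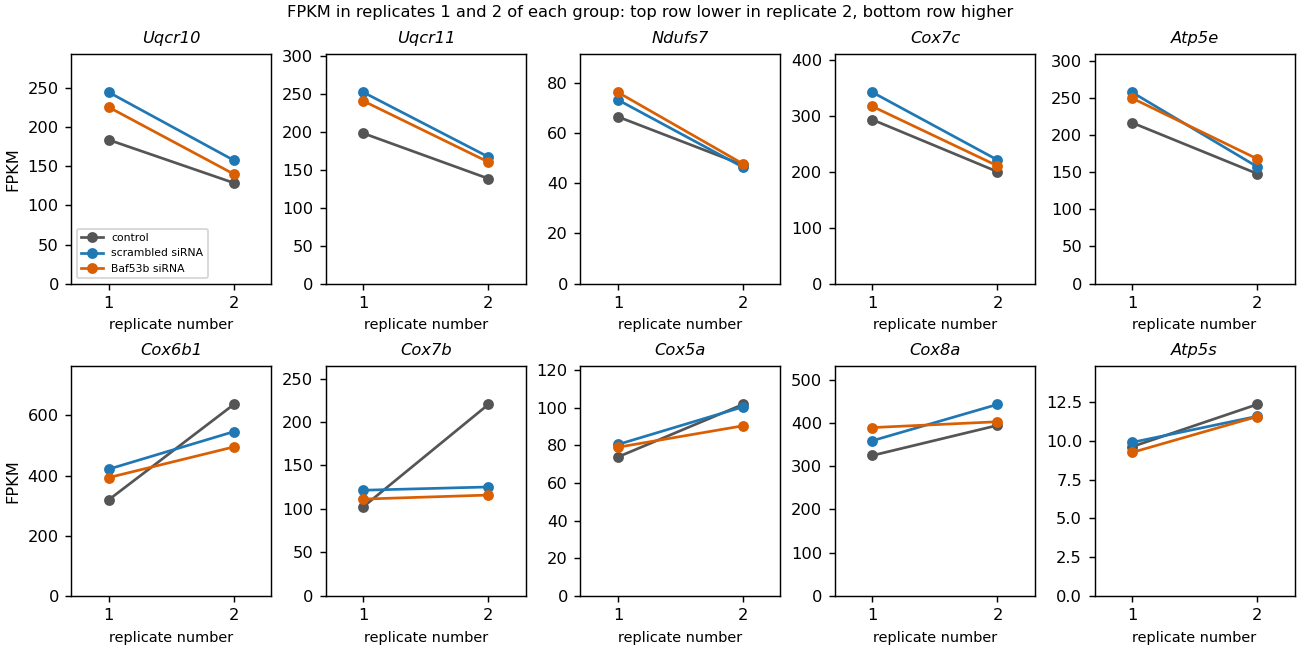
FPKM of 10 members in replicates 1 and 2, a line per group, axes starting at 0. The top row shows the 5 members lower in replicate 2 at adjusted p = 0.0499, in all 3 groups; the bottom row shows 5 members that were higher in replicate 2 in all 3 groups and did not pass the test.

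Other members were higher in replicate 2, though 0 passed. Cox6b1 (chr7:30616861-30626151, minus) was at 319.7, 421 and 393 FPKM in replicate 1 and 637, 546 and 495 in replicate 2, a log2 difference of 0.57 (SE 0.15, adjusted p = 0.0916). The replicates did not overlap, and the step was 0.99 in control libraries, 0.37 with scrambled siRNA and 0.33 with Baf53b siRNA. Cox7b had a difference of 0.40 (SE 0.22, adjusted p = 0.304), nearly all from control, where the step was 1.10 against 0.04 and 0.06 in the siRNA groups. Cox5a (chr9:57521274-57532426, plus), a subunit on the matrix side, was at 73.9, 80.5 and 79.0 and then 102, 100.5 and 90.4 FPKM (0.32, SE 0.08, adjusted p = 0.0769), and the replicates did not overlap. Ndufa12, an accessory subunit and the highest of complex I, was at 112, 121 and 124 and then 159, 143 and 129 FPKM (0.27, SE 0.10, adjusted p = 0.165), without overlap. In all, 9 members were higher in replicate 2 in each of the 3 groups (11.1%, all genes 11.4%), 5 of them in complex IV (Cox5a, Cox5b, Cox6b1, Cox7b and Cox8a). Lower in each of the 3 groups were 33 members (40.7%, all genes 37.1%), 17 of them in complex I.

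The complexes differed in their medians for replicate 2 against replicate 1. These were -0.15 in complex I, -0.11 in complex II, -0.08 in complex III, 0.02 in complex IV and -0.19 in complex V, -0.13 over all members and -0.10 over all genes. The groups did not agree: the members' median was 0.00 in control libraries, -0.17 with scrambled siRNA and -0.25 with Baf53b siRNA. All genes had -0.11, -0.13 and -0.07 in the same order. Within complex IV the 9 subunits used in most tissues had a median of 0.21 and a range from -0.59 (Cox7c) to 0.57 (Cox6b1). By group their median was 0.43 in control libraries, 0.04 with scrambled siRNA and 0.05 with Baf53b siRNA. Within complex III the range was -0.61 (Uqcr10) to 0.25 (Uqcrb, a small subunit near the ubiquinone site), so subunits of the same complex moved in opposite directions by these values. Sdhc fell outside its complex, with -0.50 (SE 0.12, adjusted p = 0.0756) beside -0.07 to -0.13 for the other 3.

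The GC content of transcripts moved with the replicate difference. Spearman's rho between them was -0.36 over the 81 members and -0.52 over 12512 tested genes with a coding transcript, values across genes that share their libraries. With a GC trend removed from each library, the members' median went from -0.13 to 0.01 and 0 members passed. Cox7c, at 46.0% GC, remained at -0.57 and Cox6b1, at 51.6%, was at 0.70 after that step, whereas Ndufs7, at 60.1%, went from -0.60 to -0.35. The share of FPKM from the mitochondrial chromosome was also higher in replicate 2 of each group: 19.4% and 29.5% in control libraries, 15.0% and 26.9% with scrambled siRNA and 19.3% and 22.8% with Baf53b siRNA. Its gene mt-Atp8 was at 39684.5 and 59791 FPKM in control libraries, 14151 and 67507 with scrambled siRNA and 35104 and 57134 with Baf53b siRNA. With Baf53b siRNA some other genes of that chromosome, mt-Co1 among them, were lower in replicate 2 and some higher. The higher share is therefore no shift of all its genes in every group. Rescaling to the FPKM outside the mitochondrial chromosome left the members' median at -0.06. The part of GC content or of mitochondrial RNA in the result was not tested beyond these values.

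**Figure D5:**
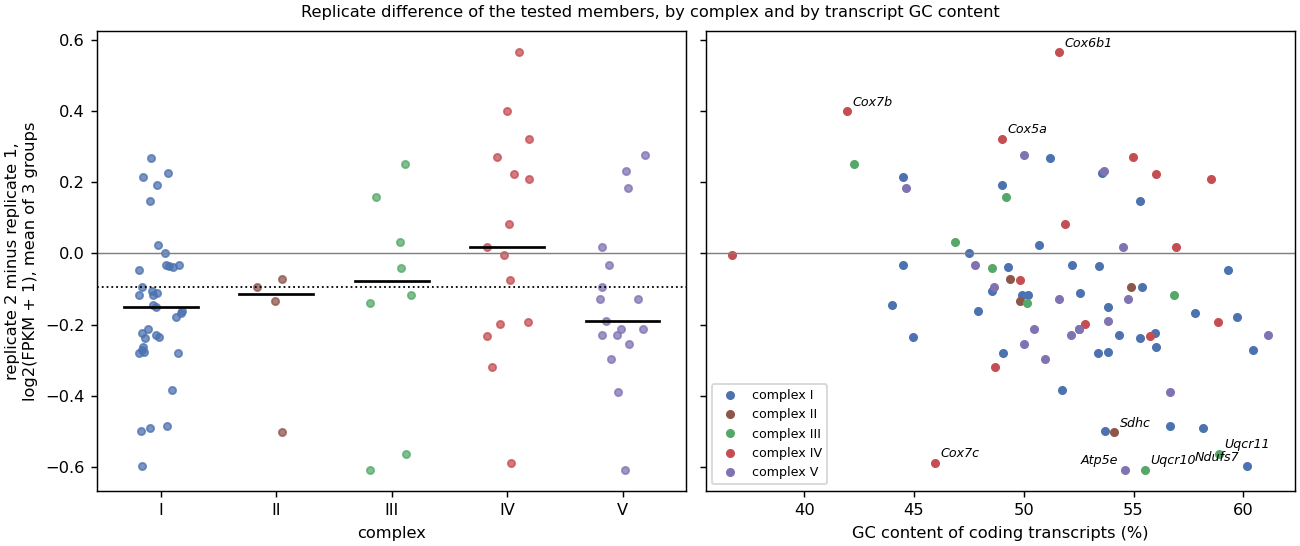
Left, log2 difference between replicate 2 and replicate 1 (mean of 3 groups) of the tested members by complex, with medians as bars and the median of all tested genes dotted. Right, the same difference against the GC content of coding transcripts in percent; members of higher GC content tend to lie lower, with Cox7c and Cox6b1 away from that tendency.

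The rest of the pathway was read from lists written with earlier results of these data known. The 13 subunits encoded by mitochondrial DNA, the partners of the members in complexes I, III, IV and V, summed to 112300 and 176958 FPKM in control libraries, 84680 and 162990 with scrambled siRNA and 115005 and 135496 with Baf53b siRNA. By the mean over the 3 groups all 13 were higher in replicate 2, by a median of 0.38 (log2), and 0 passed. The members' median was -0.13 in the same comparison. The groups did not agree gene by gene. With Baf53b siRNA, mt-Nd1, mt-Co1, mt-Co2, mt-Co3, mt-Cytb and mt-Nd4l were lower in replicate 2 and the others higher. Among the latter, mt-Atp8 went from 35104 to 57134 FPKM, a large part of the sums. Against control, all 13 were lower by the sign of the group means in both siRNA groups, with medians of -0.24 and -0.22, and 0 passed. The control libraries differed widely here. The sum of control replicate 1 was below both sums with Baf53b siRNA, and that of control replicate 2 was the highest of all libraries. Other lists were 15 assembly factors of complex I, 32 tested factors of the other complexes and 13 regulators such as drivers of mitochondrial biogenesis. Further lists were 16 genes of the tricarboxylic acid cycle and pyruvate dehydrogenase and 8 genes of nucleotide and phosphate handling. The last list holds the creatine kinases Ckb and Ckmt1 beside carriers. Of all these genes 0 passed in any comparison. In that order the medians of the lists for Baf53b siRNA against scrambled siRNA were -0.02, -0.03, -0.03, -0.06 and -0.06. The members had -0.07 there and all genes 0.00, and all 8 genes of the last list were lower by sign. The 16 genes of glycolysis, the other source of ATP, had a median of -0.10 there and -0.27 between replicates, where 1 passed as lower. For comparison, cytosolic ribosomal proteins had medians of 0.01 against scrambled siRNA and -0.13 between replicates, the second equal to that of the members to 2 decimals. Cycs, the electron carrier between complexes III and IV, was at 35.5 and 60.3 FPKM in control libraries, 41.3 and 47.2 with scrambled siRNA and 42.2 and 38.9 with Baf53b siRNA, and the groups overlapped.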

How the data were processed

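RNA of 6 lateral amygdala libraries was selected with oligo-dT beads and sequenced from both ends with a stranded kit, per the labels' protocols. The authors deposited FPKM per gene with an interval, per the file headers. The tools were Cufflinks 2.2.1, TopHat2 2.1.1 and bcl2fastq 2.19.1.403, per the submitters' processing notes. For settings, annotation release and fragments that match several genes, details were not given in the sources used here. FPKM is a share of a library, so abundant mitochondrial RNA lowers other genes.

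Members and lists were chosen with earlier results of these data known. Values were taken as log2(FPKM + 1); fold changes on this scale understate the change of low genes. Genes whose mean reached 1 FPKM were kept, 354 small RNA genes (by type in GENCODE M21, of the same build mm10, and vault RNA by name) and 4 genes with a failed estimate were left out, and 14663 genes were tested with limma 3.58.1 in R 4.3.3 (group means over all 6 libraries, eBayes with trend, two-sided, Benjamini-Hochberg adjustment at 0.05). The replicate comparison added a replicate term to the group means. The fit was run on simulated data with independent noise and planted changes larger than the members' group differences. That run cannot tell whether changes of the members' size would be found.

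Replicate numbers come from the titles. Deviations of same-numbered libraries correlated across tested genes at 0.39 (control with scrambled siRNA), 0.18 (control with Baf53b siRNA) and 0.36 (both siRNA groups). Across the 81 members the correlations were higher, at 0.58, 0.67 and 0.65 in the same order. These values come from the same libraries and cannot show that the numbers pair them by design. The group comparisons left the number out, and the replicate block was an alternative. Depth was estimated from the deposited intervals, with each half-width read as 2 counting errors; this covers counting error only. Members had a median of 692 fragments in their lowest library. Values per library were given for all Sdh genes, the 2 highest members of each complex, the largest differences in each direction per complex and comparison, isoform sets, called members and the 3 largest differences per direction of the same sign in all replicate pairs; some of these are given by their mean or difference only. Promoter windows come from RefSeq (GRCm38.p6), and GC content from GENCODE M21 transcripts. Alternatives were another pseudocount, filters, scalings, limma settings, a replicate block, a GC trend and leaving out each library.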

Additional observations from a re-analysis of the deposited data

Results flagged for a closer look

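The tables hold 92 rows of synthetic spike-in RNA that the labels do not mention. They are data outside the comparisons and were set beside control, where they summed to 117 and 125 FPKM. Their sums were 207 FPKM in scrambled siRNA replicate 1, 656 FPKM in scrambled siRNA replicate 2, 4825 FPKM in Baf53b siRNA replicate 1 and 811 FPKM in Baf53b siRNA replicate 2, each above both control libraries. They were not used to scale the members' values.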

How the results depend on the processing

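In the 3 group comparisons 0 members passed under each alternative run, the replicate block included. With the replicate block, 13 genes in all passed against scrambled siRNA (18 without), 188 against control (181) and 0 for scrambled siRNA against control (0), so the block changed no call of a member. Leaving out 1 library moved the members' median between -0.18 and 0.06 against scrambled siRNA, between -0.092 (without Baf53b siRNA replicate 1) and 0.16 for Baf53b siRNA against control and between 0.00 and 0.18 for scrambled siRNA against control. With a lone library left in a group, that library is assumed to vary like the others.

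The replicate comparison was the least stable. The 5 members went to 0 with a pseudocount of 0.1, without a filter, under each of the 3 other scalings (rescaling outside the mitochondrial chromosome, quantile normalization, median-of-ratios), without the mean trend, with the robust option, with the GC trend removed (members' median log2 difference between replicates 0.0059) and with the vault RNA gene kept. They became 9 at a mean FPKM of at least 5 and 15 (3 higher, 12 lower) without group terms. Leaving out 1 library gave 0 to 4, with 4 only without control replicate 2, and a members' median from -0.20 (without either control library) to -0.07 (without either Baf53b siRNA library). Calls over all genes went from 67 to between 0 (no filter) and 1425 (no group terms) there, and from 18 to between 0 (no filter) and 56 (GC trend removed) against scrambled siRNA. Against control they went from 181 to between 34 (without Baf53b siRNA replicate 1) and 237 (GC trend removed), and for scrambled siRNA against control from 0 to at most 7. Median-of-ratios scaling moved the median of all genes between replicates from -0.10 to 0.01. The cause was not tested. The GC trend and the vault RNA alternatives were chosen after seeing the data. The members' SEs were 0.12 to 0.33 (log2) without the replicate block and 0.07 to 0.35 with it, which limits the differences of single members that 2 libraries a group can show.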
